A study of Mus musculus with 8 samples.

Results

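Mouse zinc finger genes that carry the symbols Zfp800 to Zfp999 were followed in embryonic stem cells grown under conditions meant to induce primitive endoderm. The table of raw counts held 92 symbols in that range. The 79 whose counts summed to 80 or more over the 8 libraries were taken as members, and all 79 were among the 14229 genes tested of 21812 symbols in the table. The rule used the symbol and the summed count and no contrast between groups.

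RNA was sequenced in 4 groups of 2 libraries, named in the labels Mettl3 cKO, Mettl3 WT, Virma cKO and Virma WT. Mettl3 is the methyltransferase that writes N6-methyladenosine on messenger RNA, and Virma is a scaffold of the same writer complex. All 4 groups shared the same medium. The labels name only WT or the conditional knockout as genotype, and give neither the Cre driver, the induction nor the strain, nor whether libraries of a group came from separate cultures. The p-values therefore rest on variation between libraries alone, and that variation may be technical.

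Most genes in this numbered range encode proteins with a KRAB box at the amino end and a row of C2H2 zinc fingers behind it. The fingers read DNA, and the KRAB box recruits Trim28, through which Setdb1 and heterochromatin proteins are brought to the site. Many of these proteins bind endogenous retroviruses, and in embryonic stem cells this system keeps many such elements silent. The genes arose largely by duplication and still lie in clusters of similar copies.

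The sequence of the family showed both features. A KRAB box was found in the translated coding sequence of 70 of the 79 members, and the number of C2H2 fingers had a median of 11 and ran from 0 to 22. The stretches below are 60 bases of coding sequence from GENCODE M21 transcripts, shown because they carry the KRAB core that defines the family, and for members that the results turn on. The capitals mark the 48 bases that encode the core motif.

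Zfp809: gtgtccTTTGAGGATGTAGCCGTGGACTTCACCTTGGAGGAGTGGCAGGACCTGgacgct
Zfp819: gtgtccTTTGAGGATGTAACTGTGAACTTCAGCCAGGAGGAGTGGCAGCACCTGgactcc
Zfp866: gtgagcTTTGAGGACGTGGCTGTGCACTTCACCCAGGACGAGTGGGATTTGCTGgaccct
Zfp871: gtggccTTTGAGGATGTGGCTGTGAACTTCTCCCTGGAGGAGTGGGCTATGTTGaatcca
Zfp942: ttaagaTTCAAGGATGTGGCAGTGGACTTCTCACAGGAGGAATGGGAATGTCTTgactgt
Zfp944: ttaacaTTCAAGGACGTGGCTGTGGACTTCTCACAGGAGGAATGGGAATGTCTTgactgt
Zfp979: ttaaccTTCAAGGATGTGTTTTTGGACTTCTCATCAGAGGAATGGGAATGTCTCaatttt
Zfp980: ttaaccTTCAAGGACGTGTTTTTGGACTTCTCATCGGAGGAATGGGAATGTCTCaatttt

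Zfp942 and Zfp944 of chromosome 17 had 57 of these 60 bases in common, and Zfp979 and Zfp980 of chromosome 4 had 58. Zfp809 of chromosome 9 and Zfp979 had 35. Such similarity bears on the counts, because a read that matches several genes may be dropped or assigned to one of them. In 36 members more than 10% of the transcript's windows of 50 bases also occurred in another gene, and the counts of these members are uncertain. The other 43 members shared at most 10%.

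The promoters of these pairs were also alike. The lines below give the 250 bases before the annotated start, from the RefSeq promoter table (build GRCm38.p6), which held an entry for 69 of the 79 members. For the chromosome 4 members, which differed between the cell lines, the capitals mark CCAAT or its complement ATTGG. For the chromosome 17 pair, which fell in both knockouts, the capitals mark the base that differs in the stretch both share.

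Zfp979, chr4:147642509-147642758, minus strand: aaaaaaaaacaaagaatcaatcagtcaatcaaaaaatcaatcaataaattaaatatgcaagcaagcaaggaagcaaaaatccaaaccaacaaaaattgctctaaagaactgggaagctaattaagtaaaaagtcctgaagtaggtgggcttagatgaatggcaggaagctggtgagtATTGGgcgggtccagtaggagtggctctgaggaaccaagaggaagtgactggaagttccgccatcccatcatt
Zfp980, chr4:145670447-145670696, plus strand: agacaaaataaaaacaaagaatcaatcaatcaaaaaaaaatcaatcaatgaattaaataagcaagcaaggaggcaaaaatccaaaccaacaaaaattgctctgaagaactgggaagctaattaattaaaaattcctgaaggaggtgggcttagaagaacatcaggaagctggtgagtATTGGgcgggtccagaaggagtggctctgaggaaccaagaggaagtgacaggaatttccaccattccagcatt
Zfp985, chr4:147553027-147553276, plus strand: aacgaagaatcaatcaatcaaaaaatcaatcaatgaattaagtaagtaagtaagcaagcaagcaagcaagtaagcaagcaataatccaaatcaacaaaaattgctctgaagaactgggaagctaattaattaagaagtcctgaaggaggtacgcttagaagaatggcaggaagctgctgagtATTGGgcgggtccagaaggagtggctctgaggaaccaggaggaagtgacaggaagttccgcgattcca
Zfp987, chr4:146097062-146097311, plus strand: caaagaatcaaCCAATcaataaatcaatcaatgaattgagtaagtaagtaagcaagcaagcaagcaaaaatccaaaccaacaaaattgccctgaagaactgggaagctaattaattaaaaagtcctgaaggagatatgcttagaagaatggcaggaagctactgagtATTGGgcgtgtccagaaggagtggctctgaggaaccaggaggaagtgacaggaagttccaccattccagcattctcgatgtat
Zfp942, chr17:21962465-21962714, minus strand: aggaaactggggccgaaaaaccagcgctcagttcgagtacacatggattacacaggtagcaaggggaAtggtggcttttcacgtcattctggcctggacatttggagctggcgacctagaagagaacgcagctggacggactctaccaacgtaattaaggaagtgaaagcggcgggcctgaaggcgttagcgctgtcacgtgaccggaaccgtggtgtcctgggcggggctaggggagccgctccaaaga
Zfp944, chr17:22361401-22361650, minus strand: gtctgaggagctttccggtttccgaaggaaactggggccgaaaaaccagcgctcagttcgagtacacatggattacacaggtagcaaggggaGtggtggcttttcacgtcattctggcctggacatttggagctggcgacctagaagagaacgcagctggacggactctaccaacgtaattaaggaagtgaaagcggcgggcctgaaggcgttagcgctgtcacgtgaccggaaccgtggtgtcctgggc

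The windows of Zfp942 and Zfp944 overlapped in 225 aligned positions and matched in 99.6% of them. Zfp979 and Zfp980 matched in 90.4%, and Zfp985 and Zfp987 in 89.5%. The letters CCAAT, on either strand, were present in the window of 50 of the 69 members with an entry (72.5%), against 34.5% of all 27025 promoters of the same length. TATAAA was present in 1 member (1.45%), against 13% of all promoters, and GGGCGG in 26 (37.7%), against 32.9%. These motifs were chosen after the sequences had been read, similar promoters count separately, and a match is a description of letters only.

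The libraries held 15568628 to 17306227 counts, of which the members took 0.0844% to 0.121%. The level of the targeted gene did not check the Mettl3 label: Mettl3 had 35.4 and 33.9 CPM (counts scaled to the library's size) in the libraries labelled Mettl3 cKO, against 35.7 and 35.2 CPM in those labelled Mettl3 WT. Virma had 70.8 and 73.8 CPM in Virma cKO, against 93.3 and 88.8 CPM in Virma WT (log2 fold change -0.33 ± 0.06 SE, edgeR quasi-likelihood test with Benjamini-Hochberg adjusted p = 0.000102). Mettl3 also fell in the Virma line, with 34.1 and 33.6 CPM in Virma cKO, against 45.8 and 44.3 CPM in Virma WT (-0.42 ± 0.09 SE; edgeR, Benjamini-Hochberg adjusted p = 0.000232). A gene-level count cannot reveal the loss of a single exon. Within Virma cKO the difference between both libraries was less than the sampling noise (chi-square 0.914 for each degree of freedom), so this pair was counted as 1 sample in the tests, with no SD. The Mettl3 WT pair differed most, at 2.84. Primitive endoderm markers were lower in both knockouts, 14 of 16 in Mettl3 cKO and 16 of 16 in Virma cKO. Of 11 pluripotency markers, 4 were higher and 6 lower in Mettl3 cKO and 1 higher and 8 lower in Virma cKO, where they summed to 1451 and 1471 CPM, against 2399 and 2437 CPM in Virma WT. Trophectoderm markers summed to 1108 and 1112 CPM in Virma cKO, against 826 and 845 CPM in Virma WT, with 3 of 7 higher and 2 lower. Fibroblast or feeder markers were higher, 12 of 13 and 13 of 13, with a summed level of 382 CPM in both Mettl3 cKO libraries, against 209 and 224 CPM in Mettl3 WT, and of 1126 and 1118 CPM in Virma cKO, against 496 and 493 CPM in Virma WT. The part of these shifts in the results was not tested, and in bulk RNA fewer cells of a type cannot be told apart from less RNA per cell.

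Levels of the members were low and unequal. Per kilobase of exon, Zfp869 was highest at 30.7 CPM per kb over the 8 libraries, followed by Zfp830 (24.1), Zfp979 (21.4), Zfp948 (12.7) and Zfp978 (12.3). The lowest was Zfp974 at 0.187 CPM per kb. Before length correction the median member had 8.26 CPM, against 22.4 CPM for all genes tested. The members' summed level was 860 and 848 CPM in Mettl3 cKO, against 943 and 952 CPM in Mettl3 WT, and 1126 and 1145 CPM in Virma cKO, against 1213 and 1148 CPM in Virma WT. The Mettl3 cKO libraries were thus below their WT libraries. In the Virma line the order depended on the scaling, since as a share of all raw counts the members took 0.119% and 0.121% in Virma cKO, against 0.117% and 0.112% in Virma WT.

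At the edge of the count minimum, Zfp879, Zfp853 and Zfp983 were just inside with summed counts of 80, 168 and 171. Zfp972, Zfp997 and Zfp998 were just outside with 70, 62 and 42. Of the 13 symbols left out, 4 had no count in any library.

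In cells labelled Mettl3 cKO, more members fell than rose. The fall was deepest for Zfp820, Zfp970, Zfp866, Zfp871, Zfp971 and Zfp946, and the rise for Zfp819 stood apart from the other rises. By edgeR's quasi-likelihood test at a Benjamini-Hochberg adjusted p below 0.05, 36 of 79 members passed against Mettl3 WT, 10 higher and 26 lower. This was 45.6% of the members, where 55.1% of all genes tested passed. The split was 12.7% higher and 32.9% lower, against a background of 27.1% and 28%, so fewer members rose than genes in general, while the share that fell was near the background. The median log2 fold change of the members was -0.19, against 0.01 for all genes tested. Fewer members passed without Mettl3 cKO replicate 2. With the trend over transcript length and GC content removed, the members' median was -0.0765, near the -0.0659 of all genes tested. The groups did not overlap, irrespective of the test, for 18 members that were higher and 40 that were lower, where 75% of all genes did not overlap.

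**Figure D1:**
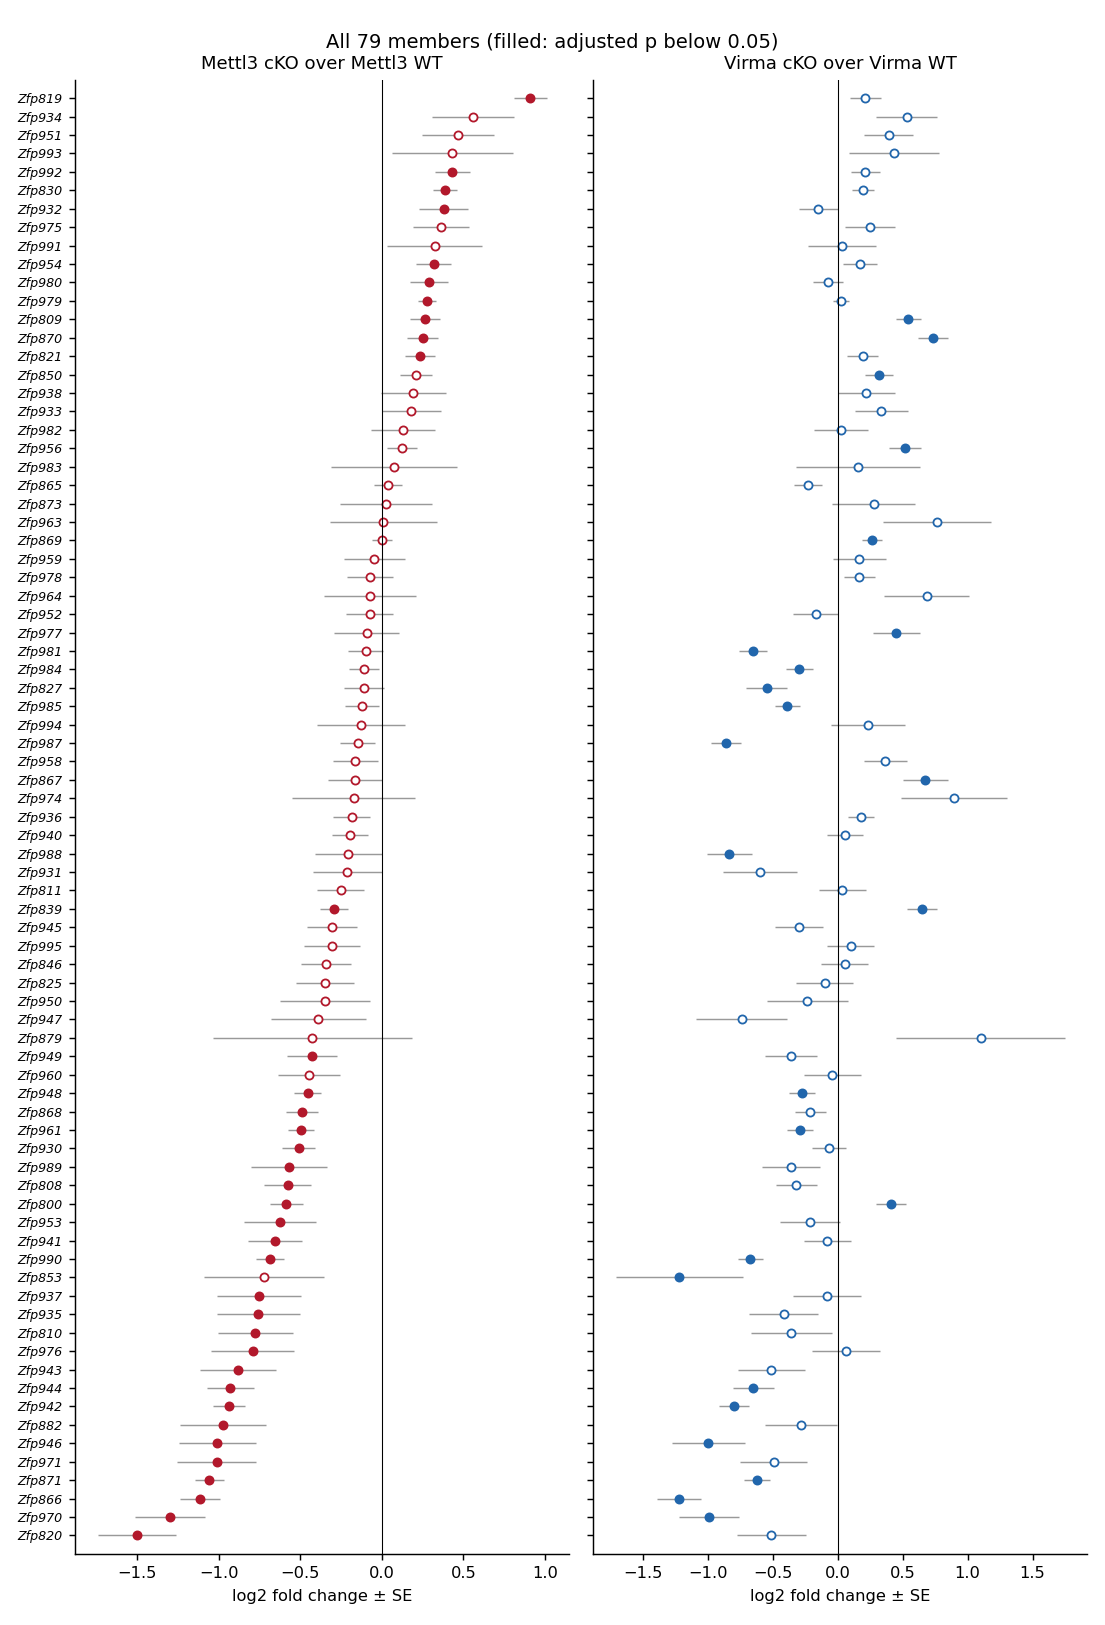
Log2 fold change of each of the 79 members (points) with its standard error (bars), Mettl3 cKO over Mettl3 WT on the left and Virma cKO over Virma WT on the right, ordered by the Mettl3 value; filled points have an adjusted p below 0.05. On the left 26 filled points lie below 0 and 10 above, and on the right 16 lie below and 9 above.

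Zfp866, a KRAB gene of chromosome 8 with 12 fingers, had 6.92 and 8.59 CPM in Mettl3 cKO, against 16.4 and 17.2 CPM in Mettl3 WT. The groups did not overlap, and the log2 fold change was -1.11 ± 0.12 SE (edgeR quasi-likelihood test, Benjamini-Hochberg adjusted p = 6.22e-08). Its counts are uncertain, since 11.95% of its windows also occurred in other genes. Zfp871, with 15 fingers, shared only 0.25% of its windows and had 14.6 and 15.2 CPM in Mettl3 cKO, against 32.3 and 29.9 CPM in Mettl3 WT. This was a log2 fold change of -1.06 ± 0.09 SE (edgeR, Benjamini-Hochberg adjusted p = 4.62e-10), with both knockout libraries at about 15 CPM.

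Zfp820 had the largest negative value of the members called, and the replicates disagreed. It had 3.37 and 3.33 CPM in Mettl3 cKO, against 12.7 and 6.29 CPM in Mettl3 WT, from 212 and 105 counts in the WT libraries. The log2 fold change of -1.503 ± 0.24 SE (edgeR, Benjamini-Hochberg adjusted p = 1.08e-05) ran from -1.92 to -0.91 when settings or libraries were changed, and passed throughout. Zfp970 and Zfp971 of chromosome 2 also fell. Zfp970 had 2.23 and 2.06 CPM in Mettl3 cKO, against 4.74 and 5.81 CPM in Mettl3 WT (log2 fold change -1.30 ± 0.22 SE). Zfp971 had 1.56 and 2.06 CPM in Mettl3 cKO, against 3.66 and 3.65 CPM in Mettl3 WT (log2 fold change -1.01 ± 0.24 SE). Both passed the test, but 57.2% and 42.4% of their windows are shared with other genes, so reads could be split among copies.

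Zfp819 was the member that rose most. It encodes a KRAB protein with 9 fingers that is known from pluripotent cells and germ cells, where it works with Trim28. It had 21.2 and 22.1 CPM in Mettl3 cKO, against 11.9 and 11.1 CPM in Mettl3 WT. Both knockout libraries were close to 22 CPM and well above both WT libraries, with a log2 fold change of 0.91 ± 0.10 SE (edgeR quasi-likelihood test, Benjamini-Hochberg adjusted p = 6.04e-08).

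The other rises were smaller. Zfp830, a gene with a single classical finger and no KRAB box that the early mouse embryo needs, had 45.6 and 41.1 CPM in Mettl3 cKO, against 32.4 and 33.9 CPM in Mettl3 WT (log2 fold change 0.39 ± 0.07 SE). Zfp992 had 16.8 and 15.0 CPM in Mettl3 cKO, against 11.2 and 12.4 CPM in Mettl3 WT (0.43 ± 0.11 SE). Both passed under every alternative that kept the Mettl3 WT libraries as the control. The counts of Zfp992 are uncertain, since 43.7% of its windows are shared with other genes.

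Zfp932, Zfp954 and Zfp980 passed with less margin. Zfp932, whose protein binds endogenous retroviruses together with that of the related gene Gm15446, had 8.06 and 7.38 CPM in Mettl3 cKO, against 5.94 and 5.93 CPM in Mettl3 WT. Its log2 fold change was 0.38 ± 0.15 SE (edgeR, Benjamini-Hochberg adjusted p = 0.0346), lost under 8 of 20 alternatives, and 55.5% of its windows are shared. Zfp954 (0.32 ± 0.11 SE) lost its call under 6 of 20, and Zfp980 (0.29 ± 0.12 SE) under 5 of 20. Zfp980 shares 72.55% of its windows.

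**Figure D2:**
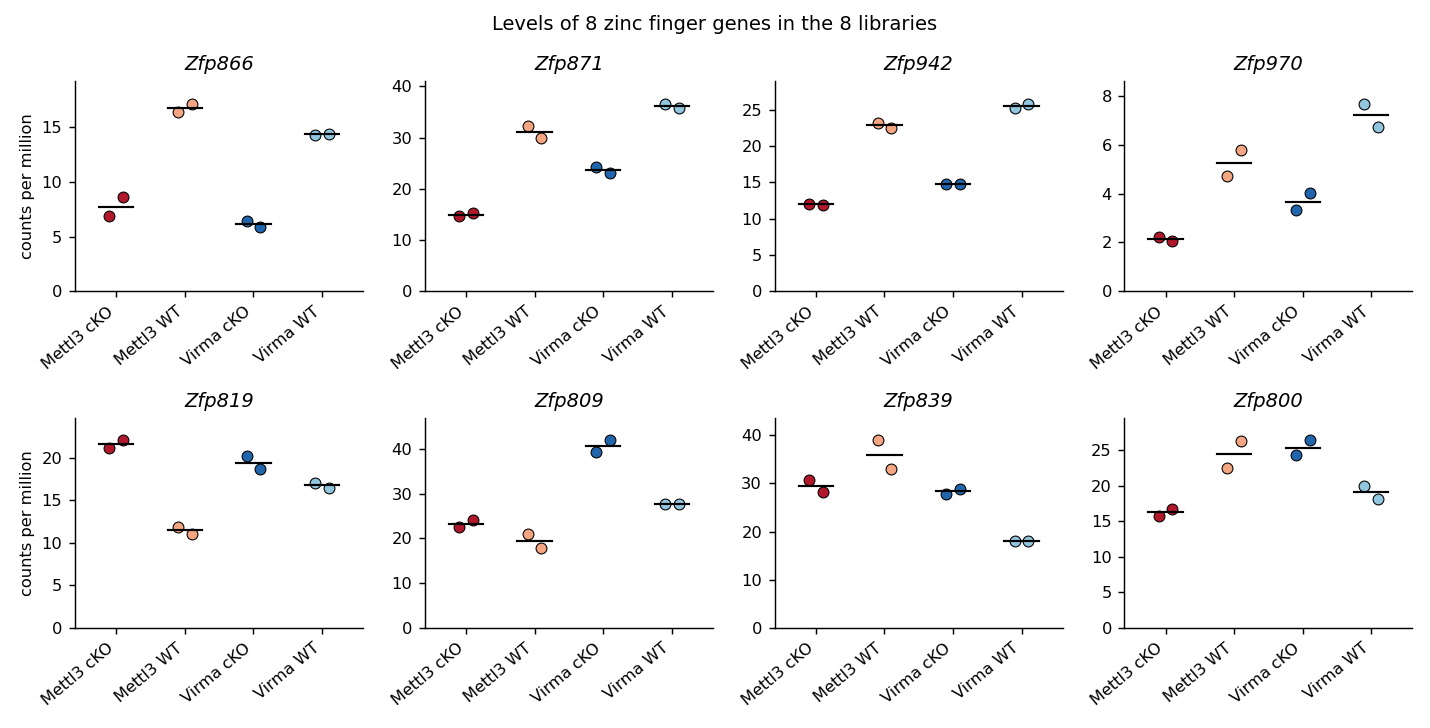
CPM (vertical axis, starting at 0) of 8 members in each library (points) of the 4 groups (horizontal axis), with the mean of each group as a bar. Zfp866, Zfp871, Zfp942 and Zfp970 are lower in both knockouts than in their WT libraries, Zfp819 is higher in Mettl3 cKO, Zfp809 is higher in both, and Zfp839 and Zfp800 lie below WT in Mettl3 cKO but above WT in Virma cKO.

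In Virma cKO both rises and falls were seen among the members. The largest falls were those of Zfp866, Zfp946, Zfp970, Zfp987, Zfp988 and Zfp942, and the largest rises those of Zfp870, Zfp867, Zfp839, Zfp809, Zfp956 and Zfp977, in each case among called members at a mean of 2 CPM or more. In all, 25 of 79 members passed against Virma WT (31.6%), 9 higher and 16 lower, where 52.3% of all genes tested passed. The shares were 11.4% higher and 20.3% lower, against a background of 26.2% and 26.1%. With the Virma cKO libraries as separate samples 43 members passed (54.4%), but the share of all genes rose as well, to 62.6%. More members and more of all genes also passed without Mettl3 WT replicate 1 or 2, whose only role here was in the shared spread. The median log2 fold change of the members was -0.04, against 0.02 for all genes tested. Without regard to the test, 29 members were higher and 33 lower in groups that did not overlap, where this held for 84.5% of all genes.

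In Virma cKO the members with uncertain counts held more falls than rises, and the others did not. The 43 members that share at most 10% of their windows gave 9 higher and 7 lower with a median of 0.058 (20.9% and 16.3%). The 36 that share more gave 0 higher and 9 lower with a median of -0.093 (0% and 25%). Of all genes tested, 26.2% were higher and 26.1% lower, so the share of falls was near the background and the rises were missing. The 6 falls of the chromosome 4 cluster are among these 9, so sharing and cluster cannot be told apart for them. The difference between the classes of sharing was not tested. The balance of calls also depended on the setting. Scaling by total count gave 21 higher and 12 lower, with a member median of 0.087, against 0.15 for all genes tested. Removing the trend with transcript length and GC content gave 7 higher and 21 lower, with a median of -0.12, against -0.0385 for all genes. In both settings, as in the main fit, the member median lay below that of all genes. The members are poor in G and C, with a median of 39.6% against 51.0% for all genes with a measured length.

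Zfp866 fell most among called members at 2 CPM or more, with 6.46 and 5.84 CPM in Virma cKO, against 14.3 and 14.4 CPM in Virma WT. Its log2 fold change was -1.22 ± 0.17 SE (edgeR quasi-likelihood test, Benjamini-Hochberg adjusted p = 1.52e-06). Both WT libraries were more than 7 CPM above either knockout library. Zfp853, at the edge of the count minimum, had 0.785 and 0.608 CPM in Virma cKO, against 1.79 and 1.61 CPM in Virma WT, and lost its call under 9 of 20 alternatives.

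Zfp987 and Zfp988 of the chromosome 4 cluster, which share 93.1% and 72.7% of their windows with other genes, fell in Virma cKO. Zfp987 had 13.04 and 16.4 CPM in Virma cKO, against 26.97 and 26.4 CPM in Virma WT (log2 fold change -0.86 ± 0.12 SE). Zfp988 had 6.64 and 7.17 CPM in Virma cKO, against 12 and 12.6 CPM in Virma WT (-0.83 ± 0.18 SE). Neither passed in Mettl3 cKO, where their values were -0.15 ± 0.11 and -0.20 ± 0.20 (SE). Zfp981 and Zfp985 of the same cluster also fell in Virma cKO, by 0.65 and 0.39 on the log2 scale.

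Among the rises, Zfp870 had 27.5 and 26.99 CPM in Virma cKO, against 15.8 and 17 CPM in Virma WT. The log2 fold change was 0.73 ± 0.11 SE (edgeR, Benjamini-Hochberg adjusted p = 8.56e-06). Zfp867, a 10-finger KRAB gene, had 11.5 and 10.6 CPM in Virma cKO, against 6.62 and 7.16 CPM in Virma WT (0.67 ± 0.17 SE), and lost its call with DESeq2. The groups did not overlap for either gene.

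Zfp956, without a KRAB box by the motif used, had 17.5 and 18.5 CPM in Virma cKO, against 13.01 and 12.1 CPM in Virma WT (0.52 ± 0.12 SE). Zfp977 had 10.7 and 9.36 CPM in Virma cKO, against 6.92 and 7.75 CPM in Virma WT, with a call lost under 10 of 20 alternatives. Zfp869, the member with the highest level per kilobase, had 51.0 and 51.5 CPM in Virma cKO, against 43.2 and 41.9 CPM in Virma WT (0.27 ± 0.08 SE). In Mettl3 cKO it had 50.2 and 51.3 CPM, against 50.1 and 51.1 CPM in Mettl3 WT.

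Several members moved in the same direction in both knockouts, which have separate WT libraries. Zfp866, Zfp946, Zfp970, Zfp942, Zfp990, Zfp944, Zfp871, Zfp948 and Zfp961 were lower in both. Zfp809 and Zfp870 were higher in both, Zfp800 and Zfp839 were lower in Mettl3 cKO and higher in Virma cKO, and 31 members passed in neither. The 9 members lower in both were 11.4% of the members, against 14.2% of all genes tested, and the 2 higher in both were 2.53%, against 13.7%. The 2 that were lower in Mettl3 cKO and higher in Virma cKO were 2.53%, against 3.13%. The reverse held for 0%, against 3.63%. The 31 that passed in neither were 39.2%, against 27.3%.

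Across the 79 members, Pearson's r between the log2 fold changes of both lines was 0.59 and Spearman's rho 0.62, beside 0.50 and 0.48 across all genes tested. The sign was the same for 59 of 79 members (74.7%), against 66.4% of all genes. Members are not independent replicates, since similar genes may share reads, so these are descriptions.

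**Figure D3:**
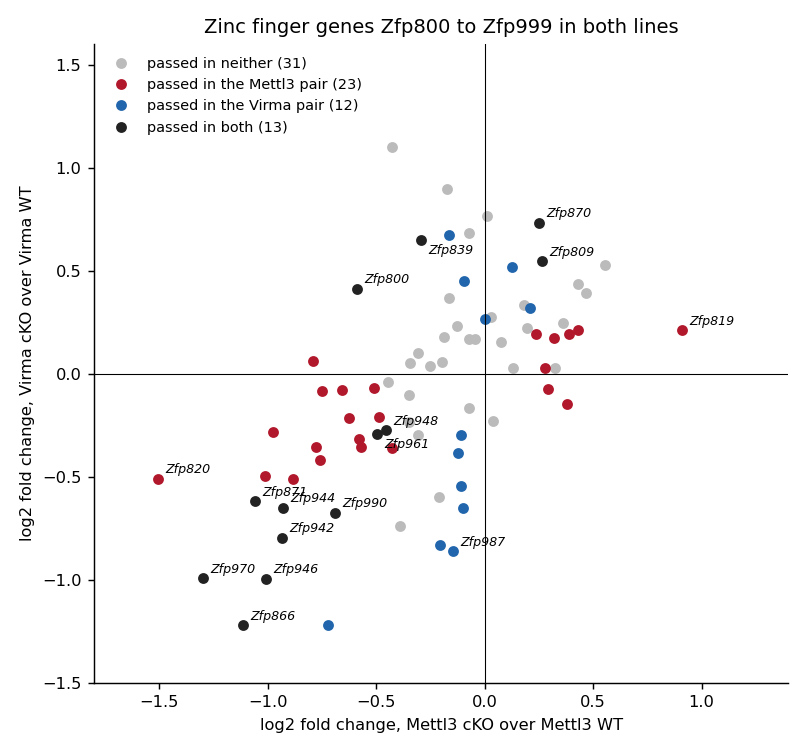
Log2 fold change of each of the 79 members in Mettl3 cKO over Mettl3 WT (horizontal) and Virma cKO over Virma WT (vertical), coloured by the comparison in which the member passed at an adjusted p below 0.05. The 13 black points passed in both: 9 at the lower left, 2 at the upper right, and Zfp800 and Zfp839 at the upper left.

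A neighbourhood of chromosome 17 held falls in both lines. Of 17 members on this chromosome, 11 lie in 1 neighbourhood with gaps below 2 Mb: Zfp820, Zfp942 to Zfp948, Zfp983, Zfp994 and Zfp995. Of these, 6 were lower and 0 higher in Mettl3 cKO by edgeR (median log2 fold change -0.46), and 4 were lower and 0 higher in Virma cKO (median -0.51). This was 54.5% lower in Mettl3 cKO, against 28% of all genes tested, and 36.4% in Virma cKO, nearer to the 26.1% of all genes. Their summed level was 71.9 and 69.5 CPM in Mettl3 cKO, against 109 and 112 CPM in Mettl3 WT, and 93.1 and 92.2 CPM in Virma cKO, against 126 and 121 CPM in Virma WT. DESeq2 gave 6 and 2 lower and 0 higher in these comparisons.

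Zfp942 had 12.03 and 11.9 CPM in Mettl3 cKO, against 23.2 and 22.5 CPM in Mettl3 WT. It had 14.7 CPM in each Virma cKO library, against 25.2 and 25.8 CPM in Virma WT. The log2 fold changes were -0.93 ± 0.10 and -0.80 ± 0.12 (SE), with edgeR Benjamini-Hochberg adjusted p of 1.94e-08 and 3.13e-06, and all knockout libraries were below all WT libraries.

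Zfp944, whose promoter window is nearly that of Zfp942, had 6.56 and 5.57 CPM in Mettl3 cKO, against 10.9 and 12.2 CPM in Mettl3 WT. It had 8.51 and 9.54 CPM in Virma cKO, against 14.9 and 13.4 CPM in Virma WT (log2 fold changes -0.93 ± 0.14 and -0.65 ± 0.16 SE). Of its windows 10.4% are shared, most of them with Zfp942, so reads of this pair may be exchanged. Zfp946 had 2.41 and 2.12 CPM in Mettl3 cKO, against 3.96 and 5.15 CPM in Mettl3 WT (-1.01 ± 0.23 SE), and 2.11 and 2.98 CPM in Virma cKO, against 5.67 and 4.47 CPM in Virma WT (-0.996 ± 0.28 SE). Its Virma call was lost with DESeq2 and without Virma WT replicate 1. Zfp948 fell less, by 0.46 and 0.27 on the log2 scale, and its Virma call was lost under 6 of 20 alternatives, among them DESeq2, scaling by total count and the fits without either Virma WT library.

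Other members lower in both lay elsewhere. Zfp871, on chromosome 17 outside that neighbourhood, had 24.2 and 23.1 CPM in Virma cKO, against 36.6 and 35.8 CPM in Virma WT (log2 fold change -0.62 ± 0.10 SE). Zfp970 had 3.32 and 4.01 CPM in Virma cKO, against 7.70 and 6.74 CPM in Virma WT (-0.99 ± 0.23 SE). Zfp990 of chromosome 4, which shares 26.98% of its windows, fell by nearly the same amount in both lines. It had 19.7 and 21 CPM in Mettl3 cKO, against 32.7 and 32.9 CPM in Mettl3 WT (-0.69 ± 0.09 SE). In Virma cKO it had 29.8 and 28.0 CPM, against 49.1 and 42.9 CPM in Virma WT (-0.67 ± 0.10 SE).

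Zfp809 was 1 of the 2 members that rose in both. Its protein recognises the primer binding site that many retroviruses, murine leukaemia virus among them, use with the proline tRNA, and recruits Trim28 to it. It had 22.6 and 24.0 CPM in Mettl3 cKO, against 20.9 and 17.8 CPM in Mettl3 WT, and 39.2 and 41.9 CPM in Virma cKO, against 27.8 and 27.7 CPM in Virma WT. The log2 fold changes were 0.26 ± 0.09 and 0.54 ± 0.10 (SE), with edgeR Benjamini-Hochberg adjusted p of 0.0192 and 5.03e-05. The Virma rise passed under all 20 alternatives, while the Mettl3 rise was lost under 5 of 20, among them DESeq2 and the fit without Mettl3 WT replicate 2. Zfp870 had 22.2 and 22.1 CPM in Mettl3 cKO, against 20.0 and 17.2 CPM in Mettl3 WT, a rise of 0.25 ± 0.10 (SE) that was lost under 6 of 20.

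The difference between the knockout effects was tested as an interaction. It passed for 13 of 79 members (16.5%), where 39.1% of all genes tested passed, 9 with a higher value in Virma and 4 with a lower one (11.4% and 5.06%, against a background of 17.9% and 21.2%). Fewer members passed without Mettl3 cKO replicate 1 or Virma WT replicate 1, and more without either Mettl3 WT library. Scaling by total count gave 14 higher and 3 lower, and removing the length and GC trend gave 5 and 12, so the balance of directions depended on the setting. The member medians were then 0.31 and -0.00256, against 0.094 and 0.00304 for all genes tested.

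Zfp800 and Zfp839 moved in opposite directions. Zfp800, a gene with C2H2 fingers and no KRAB box whose human homologue restrains enteroendocrine differentiation in gut organoids, had 15.8 and 16.8 CPM in Mettl3 cKO, against 22.5 and 26.4 CPM in Mettl3 WT. It had 24.4 and 26.4 CPM in Virma cKO, against 20.0 and 18.2 CPM in Virma WT. The Virma effect of 0.41 ± 0.12 and the Mettl3 effect of -0.59 ± 0.10 differed by 0.998 ± 0.15 (log2, SE; edgeR, Benjamini-Hochberg adjusted p = 1.41e-05). The Virma rise alone lost its call with DESeq2 and without Virma WT replicate 2.

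Zfp839, in which no classical finger was found by the motif used, had 30.6 and 28.1 CPM in Mettl3 cKO, against 39.0 and 33.1 CPM in Mettl3 WT. It had 27.8 and 28.9 CPM in Virma cKO, against 18.1 and 18.01 CPM in Virma WT. The Virma effect of 0.65 ± 0.11 and the Mettl3 effect of -0.29 ± 0.08 differed by 0.94 ± 0.14 (log2, SE; edgeR, Benjamini-Hochberg adjusted p = 9.99e-06). The knockouts stood at a like level, between the higher Mettl3 WT and the lower Virma WT libraries. The fall in Mettl3 cKO was lost without Mettl3 WT replicate 1 or Mettl3 cKO replicate 2, and with the Virma WT libraries as the control the Mettl3 value was 0.70.

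Zfp819 rose in Mettl3 cKO and did not pass in Virma cKO. In Virma cKO it had 20.2 and 18.7 CPM, against 17.1 and 16.5 CPM in Virma WT (0.21 ± 0.12 SE). Its level in Virma WT lay above that in Mettl3 WT by 0.54 ± 0.11 (log2, SE). The difference between the knockout effects was -0.70 ± 0.16 (log2, SE), with an edgeR Benjamini-Hochberg adjusted p of 0.000908. Zfp867 differed by 0.84 ± 0.24 and Zfp987 by -0.71 ± 0.16. The difference for Zfp820, 0.99 ± 0.37, was lost under 8 of 19 alternatives, and was 0.40 without Mettl3 WT replicate 1, the library with 212 counts.

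Over all 79 members, calls were more one-sided between the WT groups of the 2 lines than between knockout and WT. The 43 members that share at most 10% of their windows did not show this. They gave 7 higher and 6 lower between the WT groups, and 6 higher and 16 lower in Mettl3 cKO. These were 16.3% and 14% between the WT groups, against 25.4% and 22.2% of all genes tested. In Mettl3 cKO they were 14% and 37.2%, against 27.1% and 28%. In Virma WT, 34 of 79 members passed against Mettl3 WT, 28 higher and 6 lower (35.4% and 7.59%), where 47.6% of all genes tested passed, 25.4% higher and 22.2% lower. The median of the members was 0.26 on the log2 scale, against 0.03 for all genes. Groups that did not overlap were found for 42 members that were higher and 15 that were lower, against 71.8% of all genes. With the length and GC trend removed the split was 19 higher and 14 lower and the median 0.0657, against -0.0452 for all genes. The highest values belonged to Zfp988, Zfp951, Zfp978 and Zfp991, and the lowest to Zfp839, Zfp956, Zfp810 and Zfp930.

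**Figure D4:**
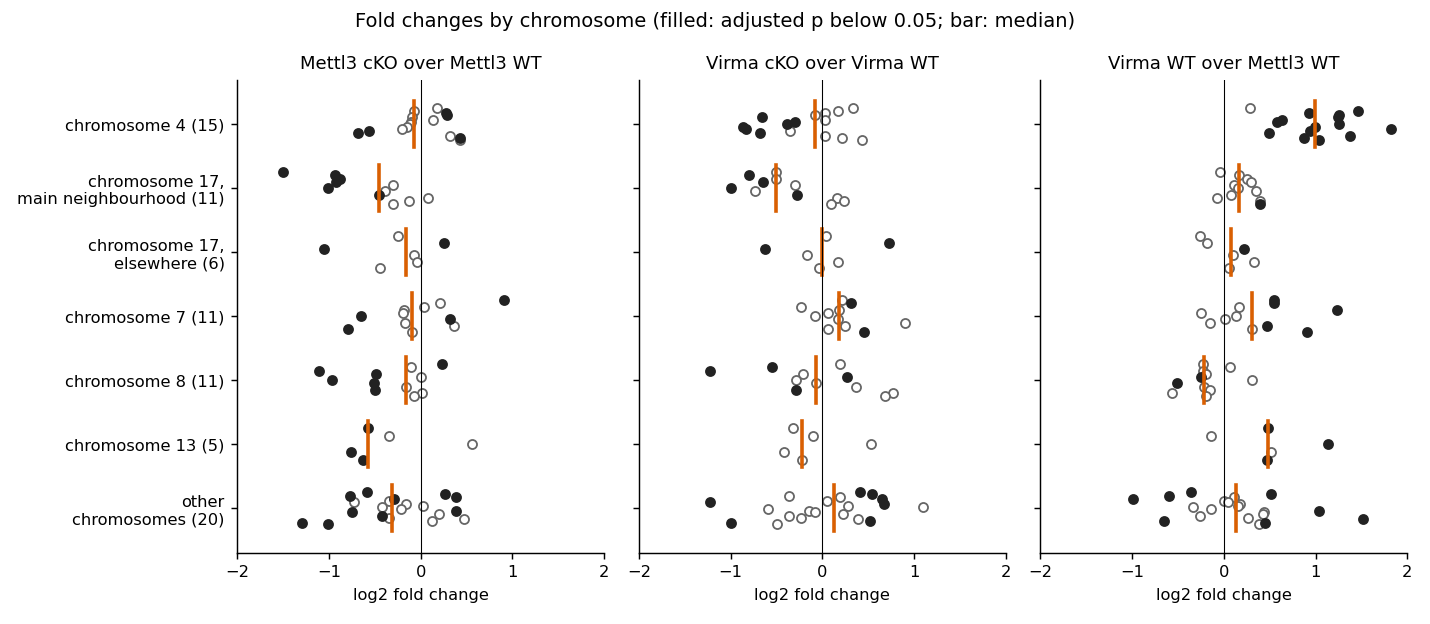
Log2 fold changes of the 79 members (points; filled where the adjusted p is below 0.05) by chromosome for Mettl3 cKO over Mettl3 WT, Virma cKO over Virma WT and Virma WT over Mettl3 WT, with the median of each group as a bar and its number of members in brackets. All 15 chromosome 4 members lie above 0 in the comparison of the WT groups (median 0.99), and the medians of the 11 genes of the chromosome 17 neighbourhood are -0.46 and -0.51 in the knockout comparisons.

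The cluster on chromosome 4 held 14 of the 28 members that were higher. All 15 members there, Zfp933 and 14 from Zfp978 to Zfp993, lie in 1 neighbourhood. In Virma WT, 14 were higher and 0 lower than in Mettl3 WT by edgeR, with a median log2 fold change of 0.99. DESeq2 gave 12 higher and 0 lower, and removing the length and GC trend gave 11 higher and 0 lower with a median of 0.63. The 14 that passed all share more than 10% of their windows with other genes, and Zfp933, which shares 1.07%, was the member that did not pass.

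The summed level of the cluster was 219 and 214 CPM in Mettl3 cKO, against 210 and 221 CPM in Mettl3 WT, and 354 and 361 CPM in Virma cKO, against 434 and 398 CPM in Virma WT. The Mettl3 libraries of both genotypes overlapped, and the Virma libraries of both genotypes were higher. Within the lines, 3 cluster members were higher and 2 lower in Mettl3 cKO, and 0 were higher and 6 lower in Virma cKO. The Mettl3 shares of 20% and 13.3% were below the 27.1% and 28% of all genes, and in Virma cKO 40% were lower, against 26.1%. Set against Virma WT instead, the Mettl3 cKO libraries had 13 of the 15 lower and 0 higher. Over all 79 members that comparison across lines gave 8 higher and 43 lower, where 58.5% of all genes passed, 29.3% higher and 29.2% lower, and 10 higher and 58 lower without overlap, where 82.3% of all genes did not overlap. Cell line, culture and any library batch cannot be told apart in the comparison of the WT groups.

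**Figure D5:**
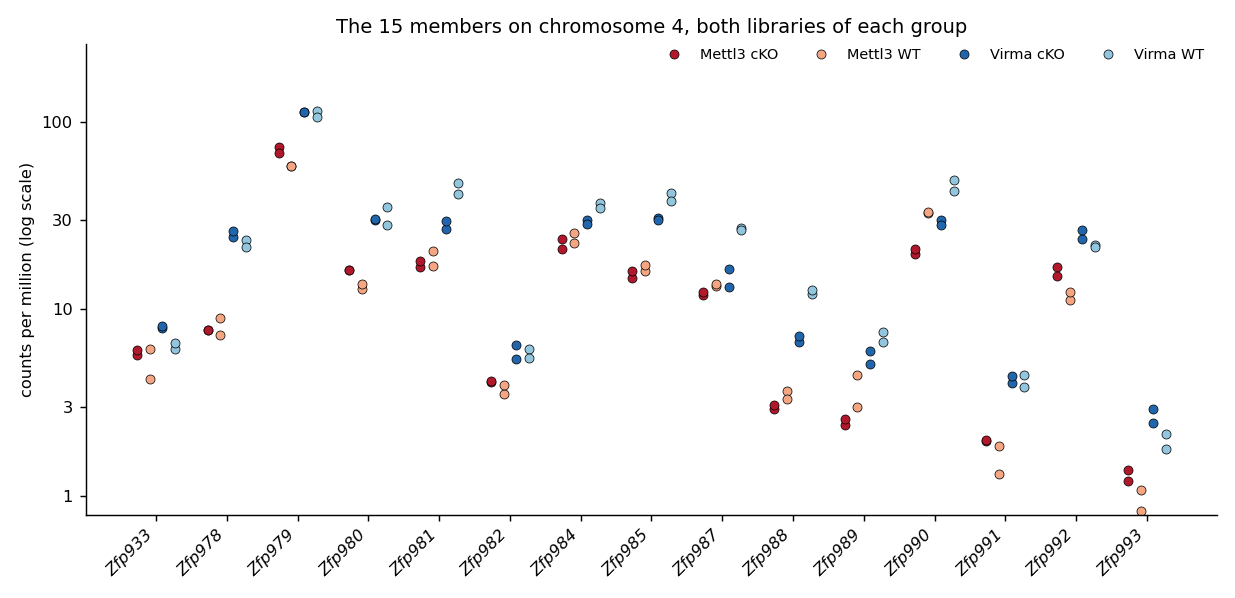
CPM on a log scale of the 15 chromosome 4 members, with both libraries of each of the 4 groups as points. For 14 of the 15 genes both Virma WT points lie above both Mettl3 WT points.

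Zfp979 had the highest level of the cluster, with 115 and 107 CPM in Virma WT, against 58.1 and 58.0 CPM in Mettl3 WT (log2 fold change 0.93 ± 0.05 SE; edgeR, Benjamini-Hochberg adjusted p = 1.13e-12). It had 73.0 and 67.8 CPM in Mettl3 cKO, above Mettl3 WT by 0.28 ± 0.06 (SE), and 113 CPM in both Virma cKO libraries. Zfp980, with a similar promoter and KRAB core, had 34.9 and 28.2 CPM in Virma WT, against 12.8 and 13.5 CPM in Mettl3 WT (1.26 ± 0.10 SE). Zfp978 had 23.3 and 21.5 CPM in Virma WT, against 7.31 and 8.92 CPM in Mettl3 WT (1.46 ± 0.12 SE). Each of these was separated by more than the spread within a group.

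Zfp985 and Zfp988 showed the same order. Zfp985 had 41.7 and 37.7 CPM in Virma WT, against 16.1 and 17.2 CPM in Mettl3 WT (1.26 ± 0.09 SE). Zfp988 had 12 and 12.6 CPM in Virma WT, against 3.66 and 3.29 CPM in Mettl3 WT (1.82 ± 0.16 SE). Zfp982, a gene described in mouse embryonic stem cells, had 6.15 and 5.49 CPM in Virma WT, against 3.54 and 3.95 CPM in Mettl3 WT (0.63 ± 0.18 SE), and passed in neither knockout. Zfp989 had 7.58 and 6.68 CPM in Virma WT, against 4.44 and 2.99 CPM in Mettl3 WT (0.94 ± 0.19 SE).

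Outside chromosome 4 the same direction was seen for Zfp951 of chromosome 5, which shares 1.16% of its windows, with 6.92 and 6.80 CPM in Virma WT, against 2.16 and 2.63 CPM in Mettl3 WT (1.51 ± 0.19 SE). Zfp932 had 11.8 and 12.6 CPM in Virma WT, against 5.94 and 5.93 CPM in Mettl3 WT (1.04 ± 0.14 SE). Zfp936 of chromosome 7 had 33.1 and 30.6 CPM in Virma WT, against 13.3 and 13.7 CPM in Mettl3 WT (1.24 ± 0.10 SE). The 6 members that were lower in Virma WT all lie outside chromosome 4 as well. On chromosome 8, 0 of 11 members were higher and 2 lower. Among the 43 members that share at most 10% of their windows, 7 were higher and 6 lower in Virma WT than in Mettl3 WT. These were 16.3% and 14%, below the 25.4% and 22.2% of all genes tested, and the median was 0.06.

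Members with and without a KRAB box gave different counts between the WT groups. In Virma WT, 28 of 70 KRAB members were higher and 3 lower than in Mettl3 WT, while 0 of the 9 members without one were higher and 3 lower. The KRAB shares were 40% and 4.29%, against 25.4% and 22.2% of all genes tested. Those of the 9 without a box were 0% and 33.3%. Of the 28 KRAB members that were higher, 14 lie in the chromosome 4 cluster, so these counts partly repeat those of that cluster. In Mettl3 cKO 8 KRAB members were higher and 24 lower, beside 2 and 2 of those without. In Virma cKO 6 KRAB members were higher and 14 lower, beside 3 and 2. The KRAB members that were lower were 34.3% in Mettl3 cKO and 20% in Virma cKO, against 28% and 26.1% of all genes tested. The difference between these classes was not tested.

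The letters GGACT, the best known form of the site that Mettl3 methylates, occurred in the coding sequence of 49 of 79 members. The median density was 0.582 per kb of coding sequence, against 1.08 per kb for all genes. In Mettl3 cKO 8 of the 49 were higher and 17 lower, beside 2 and 9 of the 30 without the letters, and in Virma cKO 7 were higher and 12 lower, beside 2 and 4. The shares that were lower, 34.7% with the letters and 30% without in Mettl3 cKO, were near the 28% of all genes, and those in Virma cKO, 24.5% and 13.3%, were below 26.1%. The letters are not a measured methylation site.

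The lower-numbered genes Zfp1 to Zfp799 served as a comparison, with 259 of them tested. In Mettl3 cKO 58 were higher and 83 lower (median -0.06 on the log2 scale), and in Virma cKO 75 were higher and 33 lower (median 0.14). These were 22.4% higher and 32% lower in Mettl3 cKO, against 27.1% and 28% of all genes tested, and 29% and 12.7% in Virma cKO, against 26.2% and 26.1%. In Virma WT against Mettl3 WT, 87 were higher and 31 lower (33.6% and 12%, against 25.4% and 22.2% of all genes).

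The partners of KRAB proteins were read beside the members. Of 32 genes for co-repressors and heterochromatin, 5 were higher and 18 lower in Mettl3 cKO (median -0.18), and 7 were higher and 16 lower in Virma cKO (median -0.18). The shares were 15.6% and 56.3% in Mettl3 cKO, against 27.1% and 28% of all genes tested, and 21.9% and 50% in Virma cKO, against 26.2% and 26.1%. Scaling by total count turned the Virma split to 13 and 13, with a median of -0.048, against 0.15 for all genes tested. In Virma WT 19 of the 32 genes were higher and 4 lower than in Mettl3 WT. The share that was higher was 59.4%, against 25.4% of all genes tested. The share that was lower was below the 22.2% of all genes tested. Trim28, the protein that KRAB boxes bind, had 795 and 814 CPM in Mettl3 cKO, against 785 and 788 CPM in Mettl3 WT (0.03 ± 0.03 SE, not passed). It had 644 and 659 CPM in Virma cKO, against 1028 and 1060 CPM in Virma WT (-0.68 ± 0.03 SE; edgeR, Benjamini-Hochberg adjusted p = 2.38e-14). Trim28 thus stood lower in both Virma cKO libraries, while Setdb1, the histone methyltransferase it recruits, passed in neither line (0.02 ± 0.04 and 0.07 ± 0.05 SE).

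Tasor, a subunit of the HUSH silencing complex, was lower in both, by 0.87 in Mettl3 cKO and by 0.53 in Virma cKO on the log2 scale. Atrx, a chromatin remodeller that acts with Daxx at heterochromatin, fell by 0.69 in Mettl3 cKO and was higher by 0.24 in Virma cKO. Daxx itself was higher in both, by 0.58 in Mettl3 cKO and by 0.29 in Virma cKO. Of the KRAB genes outside the numbered range, Zfp57, which guards imprinted regions, was higher in both (0.35 ± 0.03 and 0.41 ± 0.04 SE). Zfp445, which acts with it, had 45.6 and 47.9 CPM in Mettl3 cKO, against 43.7 and 49.4 CPM in Mettl3 WT, and 114 and 116 CPM in Virma cKO, against 81.5 and 77.9 CPM in Virma WT (0.52 ± 0.07 SE in Virma). Zfp568 was lower in Mettl3 cKO (-0.14 ± 0.03 SE) and higher in Virma cKO (0.27 ± 0.04 SE). Zfp708, also on that list, had no count in any library.

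Members with a described role that have not been given above were Zfp827 and Zfp868. Zfp827, whose human homologue recruits a remodelling complex to telomeres in some cancer cells, had 11.3 and 9.12 CPM in Virma cKO, against 15.1 and 14.7 CPM in Virma WT (-0.55 ± 0.16 SE; edgeR, Benjamini-Hochberg adjusted p = 0.00561). In Mettl3 cKO it had 12.9 and 13.5 CPM, against 12.3 and 16.2 CPM in Mettl3 WT, and did not pass. Zfp868 of chromosome 8 had 16.8 and 17.1 CPM in Mettl3 cKO, against 25.4 and 22.2 CPM in Mettl3 WT (-0.49 ± 0.10 SE).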

How the data were processed

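Raw counts per gene for 8 libraries were deposited by the authors as whole numbers; no normalization was applied to them. The build was mm39, per the submitters' processing notes, which also list STAR 2.7.11b, Subread, Trim Galore, FastQC 0.12.1 and DESeq2. How multi-mapped reads were treated, and whether strand was used, is not stated. The labels name 2 library kits without saying which library used which.

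Groups followed the labels. Counts were tested with edgeR 4.0.16 (R 4.3.3; quasi-likelihood, robust, TMM scaling, filterByExpr), with 1 model for the 4 groups, the Virma cKO pair as a rounded mean, 7 samples and 3 residual degrees of freedom. P-values were adjusted by Benjamini-Hochberg over all 14229 genes at 0.05. CPM were computed over tested genes with TMM-scaled library sizes. The script was checked on simulated counts with 200 changed genes. DESeq2 1.42.0, other scalings, filters, fits and left-out libraries were alternatives. Counting error limits low members: 6 had a mean below 2 CPM.

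Sequence features came from GENCODE M21 (GRCm38) transcripts, matched by symbol for all 79 members, in place of protein tables; promoters came from RefSeq. Named members were the largest called changes at a mean of 2 CPM or more with groups that do not overlap, those called in both lines, those differing between lines or WT groups, the 5 highest levels, members with a described role and those at the count minimum; Zfp853, Zfp936, Zfp981 and Zfp985 were named after their values were seen. The members and lists were chosen with earlier results of these data known.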

Additional observations from a re-analysis of the deposited data

Results flagged for a closer look

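For 13 members the effect of the knockout differed between the lines by the interaction test of edgeR (Benjamini-Hochberg adjusted p below 0.05). The difference, Virma effect minus Mettl3 effect on the log2 scale, was positive for 9: 0.998 for Zfp800, 0.993 for Zfp820, 0.943 for Zfp839, 0.838 for Zfp867, 0.482 for Zfp870, 0.442 for Zfp930, 0.438 for Zfp871, 0.391 for Zfp956 and 0.264 for Zfp869. It was negative for 4: -0.714 for Zfp987, -0.698 for Zfp819, -0.554 for Zfp981 and -0.251 for Zfp979. Zfp800, Zfp839, Zfp819, Zfp987 and Zfp981 passed under all 19 alternatives, and Zfp867 under all but DESeq2. The call was lost under 11 of 19 for Zfp930, 9 for Zfp956, 8 each for Zfp820 and Zfp869, and 5 each for Zfp870 and Zfp979. For Zfp871 it was lost under 4 and the sign turned under 2. Groups of 2 libraries were too small for a check of single outlying libraries.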

How the results depend on the processing

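Members called ran from 22 to 42 in the Mettl3 comparison, 18 to 42 in the Virma comparison, 8 to 25 for the difference and 25 to 42 between the WT groups when 1 library was left out. The medians then ran from -0.27 to -0.17, -0.079 to 0.088, 0.17 to 0.28 and 0.22 to 0.28. More members and more of all genes passed in the Virma comparison without Mettl3 WT replicate 1 or 2. That comparison uses those libraries only for the shared spread. DESeq2 called 23, 15 and 5 in the Mettl3, Virma and difference comparisons. These were 29.1%, 19% and 6.33% of members, where 39.9%, 40.4% and 30.6% of all genes passed. With 8 separate libraries 43 and 22 passed in the Virma and difference comparisons (54.4% and 27.8%), where 62.6% and 47.6% of all genes passed. With only the 2 groups compared 42 passed in Virma (53.2%), where 61.3% of all genes passed. An adjusted p of 0.01 left 6 differences (7.59%), where 28.4% of all genes passed. Scaling by total count moved the Virma and difference medians to 0.087 and 0.31, and those of all genes tested to 0.15 and 0.094. Removing the length and GC trend gave medians of -0.0765, -0.12, -0.00256 and 0.0657 in the 4 comparisons. The medians of all genes tested were then -0.0659, -0.0385, 0.00304 and -0.0452. Members sharing at most 10% of windows, a choice made after the data were seen, gave 22, 16 and 13 calls of 43 (Mettl3, Virma, WT groups). These were 51.2%, 37.2% and 30.2%, where 55.1%, 52.3% and 47.6% of all genes passed. Their medians were -0.25, 0.058 and 0.065. The deviations of same-numbered libraries had correlations of 0.0138 in the Mettl3 line and -0.0150 in the Virma line. In the Virma line the pairs differed by little more than counting noise, which would hide a shared culture or day. Whether same-numbered libraries shared either was thus not settled. A replicate block on 8 libraries gave 45 and 22 calls in the Virma and difference comparisons. These were 57% and 27.8% of members, where 63% and 48.2% of all genes passed. With the trend also removed the block gave 40 Virma calls (50.6%), where 63.5% of all genes passed. The medians were then -0.0765, -0.12, -0.00199 and 0.066, against -0.0658, -0.0345, 0.0065 and -0.045 for all genes. With the Virma WT libraries as control of Mettl3 cKO the Mettl3 median was -0.50, and values turned for Zfp992 (-0.45), Zfp932 (-0.66), Zfp980 (-0.97), Zfp839 (0.70), Zfp809 (-0.26), Zfp930 (0.0056) and Zfp979 (-0.65). The difference for Zfp871 turned to -0.0456 without the trend and to -0.0414 with the block as well. The cause of these shifts was not tested. Depth limits members below 2 CPM.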

Other observations

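Of the symbols just below the count minimum, Zfp972 had raw counts of 5 and 8 in Mettl3 cKO, against 15 and 19 in Mettl3 WT, and 0 and 3 in Virma cKO, against 9 and 11 in Virma WT. Zfp997 had 2 and 9 in Mettl3 cKO, against 3 and 6 in Mettl3 WT, and 10 and 15 in Virma cKO, against 9 and 8 in Virma WT. These values were not tested.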
